A study of Mus musculus with 10 samples.

Results

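Nicotinamide nucleotide transhydrogenase (Nnt) and 8 other genes of mitochondrial NADPH supply and of superoxide and peroxide defence were examined. The tissue was the nucleus accumbens (NAc) of B6 (C57BL/6J) and D2 (DBA/2J) mice. The set was defined by gene symbol: Nnt, Idh2, Me3 and Glud1 on the supply side, Prdx3, Prdx5, Txn2, Txnrd2 and Sod2 on the defence side. All 9 symbols matched a row of the gene count table, which held 29883 genes. The study compared 5 B6 with 5 D2 male mice, with 1 poly-A library from the NAc of each mouse. The mice came from the Jackson Laboratory, had never received ethanol and were 9 weeks old when the tissue was taken. No treatment or engineered allele was applied to either strain, so that the groups differ by the whole inbred background.

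NADPH is the electron donor for peroxide removal in mitochondria. NNT sits in the inner membrane and uses the proton gradient to pass hydride from NADH to NADP+. IDH2 and ME3 make NADPH while oxidizing isocitrate and malate, and GLUD1, glutamate dehydrogenase, can use either NAD+ or NADP+. SOD2 turns superoxide into hydrogen peroxide, which the peroxiredoxins PRDX3 and PRDX5 reduce. Oxidized peroxiredoxin is restored by thioredoxin 2 (TXN2), and thioredoxin 2 by the NADPH-dependent reductase TXNRD2. C57BL/6J is known to carry a deletion of several exons in Nnt and to lack working NNT protein, whereas DBA/2J does not carry it.

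Between 96977262 and 116776714 reads were counted on genes per library, and levels are given as counts per 1000000 reads (CPM) after TMM scaling. The strains were compared with edgeR's quasi-likelihood test over all genes, with Benjamini-Hochberg adjustment and a threshold of 0.05 on the adjusted p. Marker genes of the striatum were abundant in every library. The 9 markers of striatal neurons summed to 3796 to 5046 CPM in B6 and 3279 to 3974 CPM in D2. Of these markers 5, among them Drd2 and Penk, were lower in D2, beside 9.83% of all genes. B6 libraries 3 and 5 stood apart from the rest of their strain and were far more alike than any other pair within a strain. Their mean chi-square over 15388 genes (smaller is more alike) was 4.89, beside 17.5 to 119 for the other pairs within a strain. The reason was not tested, and both libraries are taken as separate mice wherever they are used. The 7 markers of cortical neurons (mean log2 CPM) were at 4.60 in both of them, at 1.65 to 2.55 in the other B6 libraries and at 2.79 to 3.82 in D2, and summed to 85.6 to 924 CPM over the B6 libraries and 222 to 575 CPM over the D2 libraries. None of the 7 was at 0 and none passed between the strains with edgeR, with 0 at an unadjusted p under 0.05 and 0 with DESeq2. Results of members, list genes and neighbours that rest on B6 libraries 3 and 5 are given with and without them. Marker genes are given over all libraries only. The remaining B6 libraries all lay below every D2 library in cortical marker level. The fit without libraries 3 and 5 therefore cannot tell strain from cortical marker level. These libraries also held the lowest striatal marker levels of B6 (8.31 and 8.32, mean log2 CPM).

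Nnt was counted at a very low level in both strains, and its level was lower in D2. Nnt (ENSMUSG00000025453) spans bases 119470859 to 119566380 of chromosome 13 (GRCm39, reverse strand). Its canonical transcript has 17 exons, 3709 bases and 2505 coding bases. The 5 B6 libraries held 71, 81, 75, 86 and 68 reads on Nnt. The 5 D2 libraries held 61, 60, 61, 65 and 41 reads. Each B6 library was therefore above each D2 library, also after scaling, where Nnt stood at 0.634, 0.776, 0.796, 0.851 and 0.648 CPM in B6 and at 0.518, 0.543, 0.534, 0.566 and 0.387 CPM in D2.

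The mean level of Nnt was 0.741 ± 0.0955 CPM in B6 and 0.509 ± 0.0705 CPM in D2 (SD, n = 5 mice each). The log2 fold change for D2 against B6 was -0.54 (SE 0.145, 95% confidence interval -0.85 to -0.22, adjusted p = 0.0212, edgeR with Benjamini-Hochberg adjustment). An exact permutation test of the log2 CPM gave p = 0.00794 (two-sided), the smallest p that 5 mice against 5 allow. Without B6 replicate 4, the highest library, the log2 fold change was -0.48 and the adjusted p 0.0544, above the threshold. Without B6 libraries 3 and 5 it was -0.56 with an adjusted p of 0.0426.

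The depth limits the single values of Nnt. In B6 library 5, the lowest of its strain by share of counted reads, Nnt took 0.629 CPM of the unscaled total (95% exact binomial interval 0.488 to 0.797), and in D2 library 4, the highest of its strain, 0.574 (0.443 to 0.732). The intervals of these neighbouring libraries overlapped, and they cover counting error only. The SD of the raw counts was 7.33 in B6 and 9.48 in D2, beside 8.73 and 7.59 for the square root of the mean count, which is the SD from counting error at equal depth. Each row of the table is a whole gene, so which exons of Nnt the reads came from is not known here. Whether the low count reflects the level of the transcript or the annotation used in counting was not tested. Both strains were aligned to GRCm39, the genome of C57BL/6J, in which the deleted exons are missing, and the part of this in the level of D2 was not tested.

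**Figure D1:**
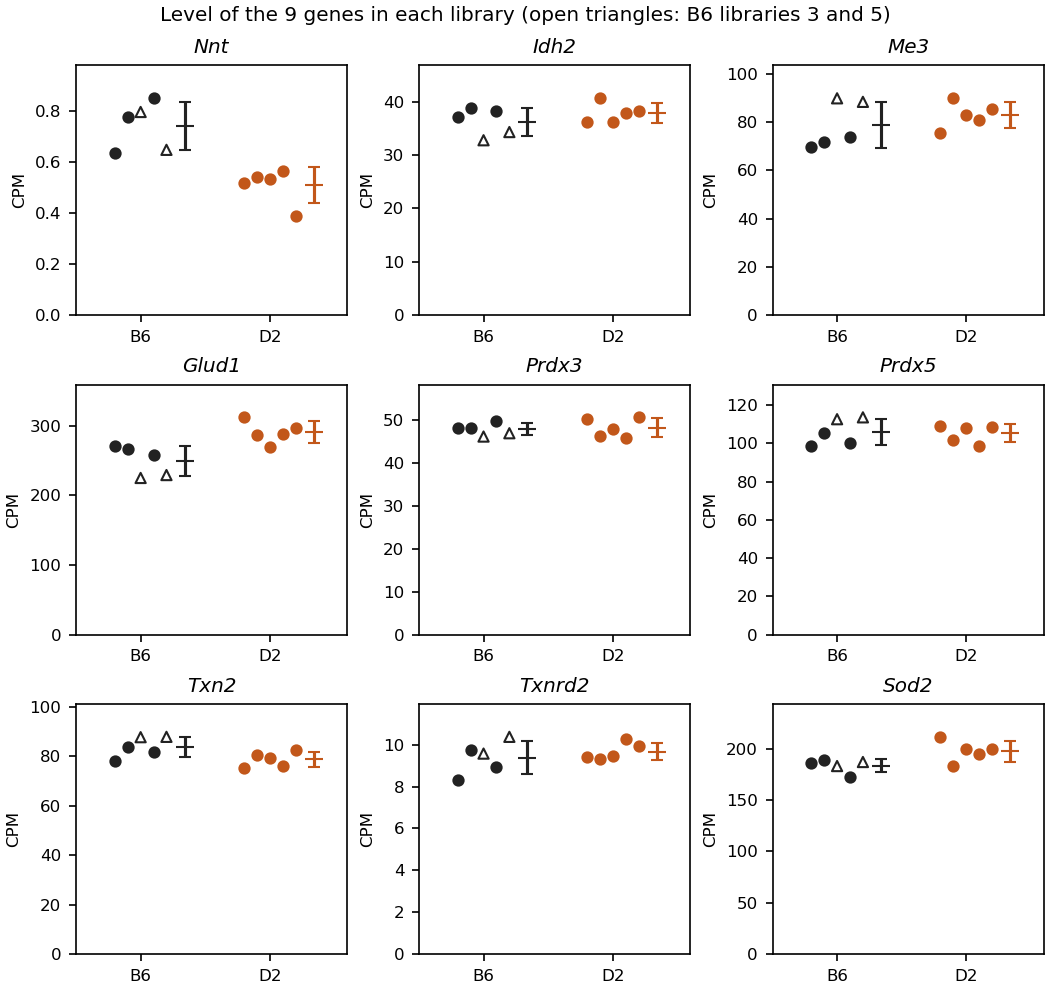
Level of the 9 genes in CPM (y axis, from 0) in each library of B6 (black) and D2 (orange). Circles and triangles are single mice, open triangles are B6 libraries 3 and 5, and bars show the mean ± SD of 5 mice. Nnt lay between 0.634 and 0.851 CPM in B6 and between 0.387 and 0.566 CPM in D2, with no overlap, while the ranges of the other 8 genes overlapped between the strains.

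Of the 9 genes, 2 passed the threshold (22.2%), beside 18.3% of all 29883 genes, so the share was near that of the whole table. Nnt was lower and Glud1 higher in D2, where 9.83% of all genes were lower and 8.50% higher. The CPM of 1 member, Nnt, did not overlap between the strains, beside 16.0% of all genes in either direction and 8.63% that were lower in D2. The median log2 fold change of the 9 genes was 0.04, against 0.00 over all genes. At an unadjusted p under 0.05, 4 members passed, with Txn2 and Sod2 added to Nnt and Glud1. With DESeq2 the members past the threshold were again Nnt and Glud1, beside 22.1% of the genes it tested.

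Glud1 was the more abundant of the members that passed. Its 5 B6 libraries stood at 271, 266, 225, 257 and 229 CPM, and its 5 D2 libraries at 312, 286, 270, 288 and 297 CPM. B6 libraries 3 and 5 were the lowest of all 10, and the groups overlapped by a narrow margin, since the lowest D2 library lay just under the highest B6 library. The means were 250 ± 21.3 CPM in B6 and 291 ± 15.5 CPM in D2 (SD, n = 5 each), a log2 fold change of 0.22 (SE 0.0587, 95% confidence interval 0.09 to 0.35, edgeR adjusted p = 0.0200), or 16.4% more in D2.

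The call of Glud1 depended on which B6 libraries were used. Without B6 libraries 3 and 5 the B6 mean was 265 ± 6.87 CPM (SD, n = 3), the log2 fold change 0.13 (SE 0.0455) and the edgeR adjusted p 0.0617. With the cortical marker level as a covariate it was 0.26 (SE 0.0294, edgeR adjusted p = 1.0e-05). The adjusted p was 0.0520 without B6 replicate 5 and 0.0518 without D2 replicate 1. Part of the exons of Glud1 (chromosome 14, 34032583 to 34067642, forward strand) is shared with other genes: 26.1% of its canonical exonic bases lie in exons of Shld2 on the opposite strand or of the processed pseudogene Gm3219 on the same strand. Gm3219 had a mean of 7.6 reads and Shld2 of 860 reads, against 29330 on Glud1. The pseudogene Glud-ps matches 656 bases of Glud1 at 97.6% identity and had a mean of 12.3 reads, and an exonic stretch of 379 bases is identical in Bcl7c.

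Me3 and Idh2, the matrix enzymes that make NADPH from malate and isocitrate, did not pass. Me3 stood at 69.6, 71.6, 89.8, 73.9 and 88.3 CPM in B6 and at 75.6, 90.0, 82.9, 81.0 and 85.5 CPM in D2. B6 libraries 3 and 5 lay among the D2 libraries, and the other 3 B6 libraries lay below all D2 libraries. Over all mice the log2 fold change was 0.08 (SE 0.0755, 95% confidence interval -0.09 to 0.24, edgeR adjusted p = 0.567). Without B6 libraries 3 and 5 it was 0.21 (SE 0.0508, edgeR adjusted p = 0.0116), and with the cortical marker level as a covariate 0.04 (SE 0.0365, edgeR adjusted p = 0.536). So the choice between these fits decided whether Me3 or Glud1 passed. In the fit without B6 libraries 3 and 5, every remaining B6 library had a lower cortical marker level than every D2 library. Strain and cortical marker level cannot be told apart there.

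**Figure D2:**
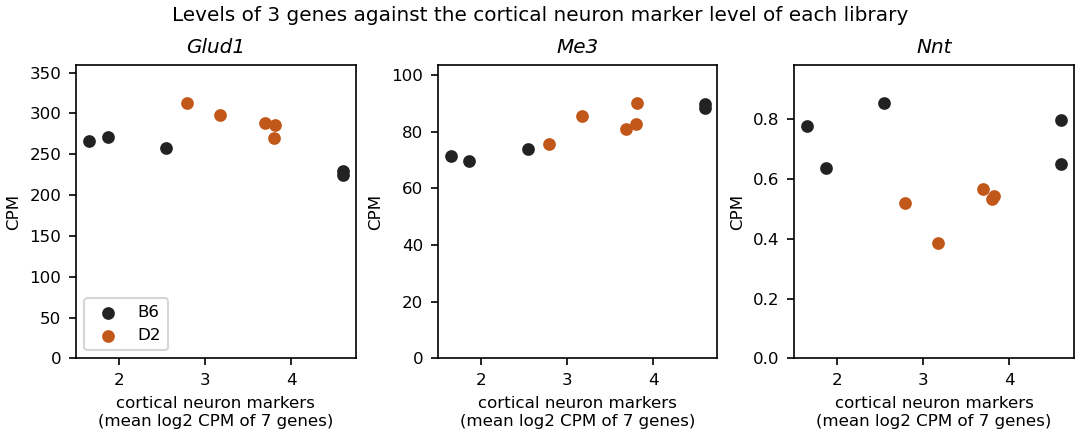
Level of Glud1, Me3 and Nnt in CPM (y axes, from 0) against the mean log2 CPM of 7 cortical neuron markers (x axes) in the 10 libraries, with B6 in black and D2 in orange. The pair of B6 libraries at 4.60 holds the lowest Glud1 levels and Me3 levels as high as those of D2, while their Nnt levels lie within the range of the other B6 libraries.

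Idh2 ranged from 32.8 to 38.8 CPM in B6 and from 36.2 to 40.7 CPM in D2. The log2 fold change was 0.06 (SE 0.0527, 95% confidence interval -0.05 to 0.18, edgeR adjusted p = 0.50), and it was -0.01 without B6 libraries 3 and 5. When the per-kilobase levels of Nnt, Idh2, Me3 and Glud1 were summed in each library, Glud1 made up 62.6% ± 2.49 of the sum in B6 and 65.1% ± 1.94 in D2 (SD, n = 5 each). Idh2 made up 20.3% ± 0.632 and 19.0% ± 0.847, and Me3 16.9% ± 2.88 and 15.8% ± 1.13. Nnt made up 0.196% ± 0.0267 in B6 and 0.121% ± 0.0185 in D2. These are shares of counted reads per kilobase, not of NADPH made.

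The peroxiredoxins showed the closest means. Prdx3 averaged 47.9 ± 1.41 CPM in B6 and 48.3 ± 2.20 CPM in D2 (SD, n = 5 each). Its log2 fold change was 0.01 with a 95% confidence interval from -0.07 to 0.09. Prdx5, which is also found in peroxisomes and the cytosol, averaged 106 ± 6.85 CPM in B6 and 105 ± 4.70 CPM in D2, with a log2 fold change of -0.01 and a 95% confidence interval from -0.12 to 0.09. Both intervals included 0. Of the exonic bases of Prdx5, 46.3% are shared with Trmt112 on the opposite strand, which had a mean of 1290 reads against 11406 on Prdx5.

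Thioredoxin 2 and its reductase did not pass the threshold. Txn2 stood at 78.3, 83.7, 87.8, 81.8 and 87.9 CPM in B6 and at 75.4, 80.5, 79.3, 76.1 and 82.6 CPM in D2. The D2 values lay toward the lower end of the B6 values, and the groups overlapped. The log2 fold change of Txn2 was -0.09 (SE 0.0404, 95% confidence interval -0.18 to -0.0026, edgeR adjusted p = 0.157). It passed with the cortical marker level as a covariate (-0.11, edgeR adjusted p = 0.0322), whereas without B6 libraries 3 and 5 it was -0.05 (adjusted p = 0.504). Txnrd2 ranged from 8.31 to 10.4 CPM in B6 and from 9.30 to 10.3 CPM in D2, a log2 fold change of 0.04 (95% confidence interval -0.10 to 0.18).

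Sod2, the matrix superoxide dismutase, stood at 186, 189, 183, 173 and 187 CPM in B6 and at 212, 183, 199, 195 and 199 CPM in D2. In 4 of the 5 D2 libraries the level was above every B6 library, and D2 library 2 lay within the B6 range. The log2 fold change was 0.11 (SE 0.0414, 95% confidence interval 0.02 to 0.20, edgeR adjusted p = 0.103). It passed with total counts as library sizes (0.14, edgeR adjusted p = 0.0354) and without D2 replicate 2 (0.13, edgeR adjusted p = 0.0381). The canonical transcript of Sod2 holds stretches of 150 to 193 bases that match other genes at 95% identity or more, so reads from there are uncertain.

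**Figure D3:**
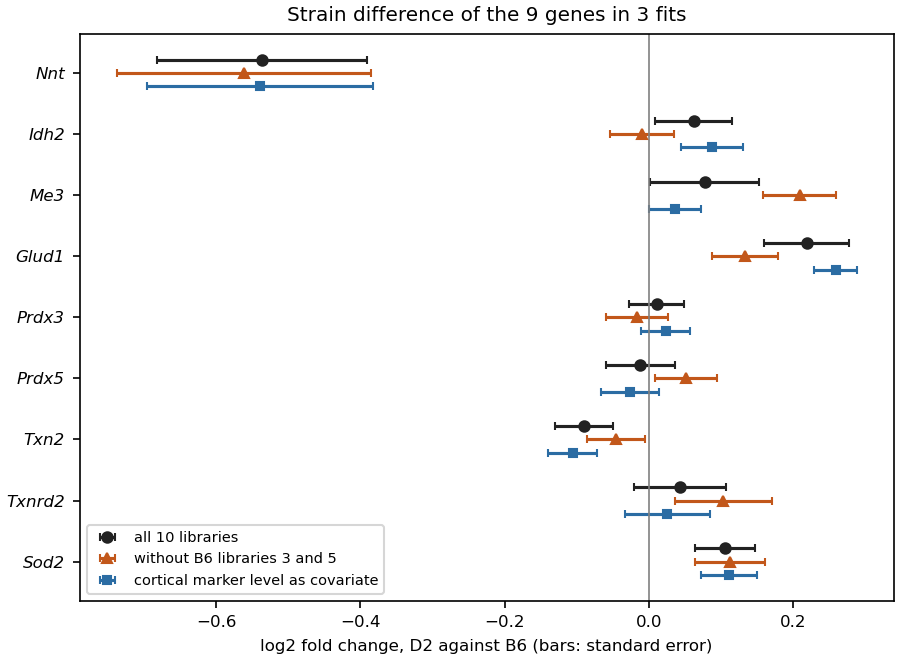
Log2 fold change of D2 against B6 (x axis, bars show the standard error) for the 9 genes in 3 edgeR fits: all 10 libraries, without B6 libraries 3 and 5, and with the cortical neuron marker level as a covariate. Nnt lay between -0.56 and -0.54 in all of them, Glud1 between 0.13 and 0.26, and Me3 between 0.04 and 0.21.

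B6 libraries 3 and 5 lay outside the range of the other 3 B6 libraries for 6 of the 9 genes. They were above it for Me3, Prdx5 and Txn2, and below it for Glud1, Idh2 and Prdx3. The ratio of their mean to that of the other B6 libraries ran from 0.857 for Glud1 to 1.24 for Me3, and for Nnt it was 0.958. The coefficient of variation in B6 was 12.2% for Me3, 8.54% for Glud1 and 3.48% for Sod2, and in D2 6.45%, 5.33% and 5.22%. The part of cortical tissue in these values was not tested. In bulk tissue fewer cells of a type and less RNA per cell cannot be told apart.

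Ordered by level per kilobase of the canonical transcript, Prdx5 (67.2 ± 4.34 CPM per kb) and Glud1 (63.9 ± 5.45) led in B6 (SD, n = 5), followed by Txn2 (37.9 ± 1.85), Prdx3 (32.2 ± 0.946), Sod2 (30.7 ± 1.07), Idh2 (20.7 ± 1.5), Me3 (17.1 ± 2.09), Txnrd2 (4.84 ± 0.407) and Nnt (0.200 ± 0.0257). Among neighbours in this order the libraries of Prdx5 and Glud1, of Prdx3 and Sod2, and of Idh2 and Me3 overlapped. In D2 the order began with Glud1 (74.4 ± 3.97 CPM per kb) and Prdx5 (66.6 ± 2.97), whose libraries did not overlap. Txn2 (35.6 ± 1.36), Sod2 (33.0 ± 1.72) and Prdx3 (32.5 ± 1.48) followed, each overlapping with the next, and then Idh2 (21.7 ± 1.07), Me3 (18.0 ± 1.16), Txnrd2 (4.99 ± 0.215) and Nnt (0.137 ± 0.0190) without overlap.

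By counted reads, Nnt was far below its nearest neighbour in this order. The level of Txnrd2 per kilobase was 24.2 times that of Nnt in B6 and 36.3 times in D2, and that of Sod2 154 and 240 times. Of all genes in the table, 45.3% had a lower mean count than Nnt, whereas for the other 8 members this share was 64.7% (Txnrd2) to 97.9% (Glud1). None of the canonical exonic bases of Nnt is shared with an exon of another gene of the table, although its span overlaps that of Paip1 on the opposite strand.

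Several genes beside Nnt were also lower in D2. Within 1 Mb on either side, 21 other genes were in the table, of which 7 passed (33.3%, beside 18.3% of all genes), 6 of them lower and 1 higher in D2. All 6 lie on the side of higher coordinates, where most of the 21 genes lie. The predicted gene 4833420G17Rik, at a gap of 32.9 kb, fell from 47.7 ± 1.97 CPM in B6 to 21.3 ± 0.740 CPM in D2 (SD, n = 5 each, log2 fold change -1.16, edgeR adjusted p = 8.7e-10). The lncRNA 3110070M22Rik was at 1.49 ± 0.146 CPM in B6 and 0.272 ± 0.0189 CPM in D2 (log2 fold change -2.45, edgeR adjusted p = 1.7e-08). Tmem267, which encodes a transmembrane protein, ranged from 14.9 to 22.9 CPM in B6 and from 4.63 to 7.24 CPM in D2 (log2 fold change -1.58, edgeR adjusted p = 4.2e-06).

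Farther out, the chemokine gene Ccl28, at a gap of 519 kb, ranged from 3.37 to 5.91 CPM in B6 and from 0.163 to 0.359 CPM in D2. This was the largest change near Nnt, with a log2 fold change of -4.17 (SE 0.228, edgeR adjusted p = 4.8e-08). The kinase gene Nim1k was at -0.43 (edgeR adjusted p = 2.1e-05) and the zinc finger gene Zfp131 at -0.62 (edgeR adjusted p = 2.0e-07). On the other side the lncRNA Gm16263, which lies within the span of Fgf10, was higher in D2 (0.44, edgeR adjusted p = 0.0312). But Gm16263 kept the call in only 2 of 10 fits with 1 mouse left out. Without B6 libraries 3 and 5 its adjusted p was 0.123. Paip1, whose span overlaps that of Nnt, was at 48.4 ± 0.919 CPM in B6 and 50.4 ± 1.35 CPM in D2 (SD, n = 5 each), with a log2 fold change of 0.06 and an edgeR adjusted p of 0.226. Hmgcs1, the cytosolic HMG-CoA synthase gene between Ccl28 and Nim1k, was at 0.08 (adjusted p = 0.570).

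**Figure D4:**
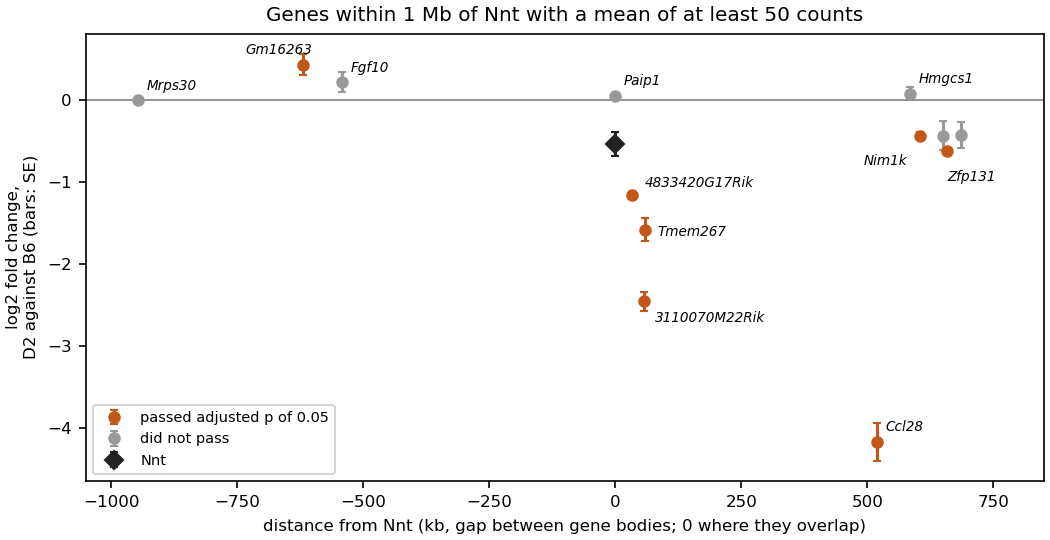
Log2 fold change of D2 against B6 (y axis, bars show the standard error) of genes within 1 Mb of Nnt that averaged 50 counts or more, against the gap between the gene and Nnt in kb (x axis, negative toward lower coordinates, 0 for an overlap of spans). Orange points passed an adjusted p of 0.05, grey points did not, and the black diamond is Nnt. The points that passed above 0 kb are all lower in D2, down to -4.17 for Ccl28, while Paip1 at 0 kb lies at 0.06.

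The genes whose log2 CPM over the 10 libraries was most like that of Nnt were Scarf1 (Pearson r = 0.96), Tbx2 (0.95), Loxl3 (0.93), Hat1 (0.93) and Gm4189 (0.93), taken as the highest of 15388 genes that averaged 100 counts or more. After the strain means were subtracted, r was 0.91, 0.85, 0.78, 0.75 and 0.77. None of them lies on chromosome 13. These values describe 10 libraries that share the strain difference, and the reads on Nnt were few. Since they were picked over all libraries, their own strain difference is no separate result.

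Genes that work beside these enzymes were read from the same fit in 6 lists with 72 different genes. Of these, 11 passed (15.3%, beside 18.3% of all genes), 4 higher and 7 lower in D2. Among 10 other genes of mitochondrial NADPH supply, which cover folate metabolism, NAD kinase and carriers, 0 passed with edgeR, 3 had an unadjusted p under 0.05 and 1 passed with DESeq2. The nearest to the threshold was Me2, the NAD-dependent malic enzyme of the matrix, with a log2 fold change of 0.16 and an adjusted p of 0.0648. The median of this list was -0.02.

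Of 12 genes of mitochondrial thiol and peroxide defence, 2 passed in opposite directions. Gsr, the glutathione reductase that spends NADPH in matrix and cytosol, rose from 25.8 ± 1.04 CPM in B6 to 30.3 ± 0.841 CPM in D2 (SD, n = 5 each, log2 fold change 0.23, SE 0.0385, edgeR adjusted p = 8.5e-04). Its libraries did not overlap, and it kept its call whichever mouse was left out. Gpx1, a glutathione peroxidase, fell from 54.2 ± 2.02 CPM to 48.7 ± 2.26 CPM (log2 fold change -0.15, SE 0.0401, edgeR adjusted p = 0.0171). With total counts as library sizes Gpx1 was at -0.12 (adjusted p = 0.0512). The median of the list was -0.04.

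Of 14 counterparts outside the matrix, 6 passed, 2 higher and 4 lower in D2. Of all genes, 18.3% passed, 8.50% higher and 9.83% lower in D2. Idh1, which makes NADPH from isocitrate in the cytosol and peroxisomes, ranged from 30.99 to 33.96 CPM in B6 and from 40.5 to 42.3 CPM in D2. Its log2 fold change was 0.33 (SE 0.0337, edgeR adjusted p = 1.3e-05), the smallest adjusted p of the 6 lists, whereas its matrix counterpart Idh2 did not pass. Pgd, of the pentose phosphate pathway, was also higher (0.16, edgeR adjusted p = 0.0217), and was the smallest of the 6 changes. Me1, the cytosolic malic enzyme, was lower (-0.21, edgeR adjusted p = 0.0311), but it kept the call in 4 of 10 fits with 1 mouse left out, and without B6 libraries 3 and 5 it was at -0.14 (adjusted p = 0.110).

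The others that were lower remove superoxide or peroxide. Catalase (Cat), which acts in peroxisomes, ranged from 36.0 to 40.5 CPM in B6 and from 31.9 to 35.0 CPM in D2, without overlap (log2 fold change -0.20, SE 0.0410, edgeR adjusted p = 0.00395). Prdx6, the peroxiredoxin that relies on glutathione, was at -0.24 (SE 0.0544, edgeR adjusted p = 0.00673). Sod3, the secreted superoxide dismutase, was at -0.32 (SE 0.0817, edgeR adjusted p = 0.0148), and at -0.23 without B6 libraries 3 and 5 (adjusted p = 0.0719). Prdx1, Prdx2, Prdx4, Txn1, Txnrd1, Sod1, G6pdx and Nadk did not pass.

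In the other lists few genes passed. Of 17 genes of the TCA cycle, Sdhb, the iron-sulphur subunit of succinate dehydrogenase, was higher in D2 (log2 fold change 0.15, SE 0.0332, edgeR adjusted p = 0.00657), and the median was 0.04. Of 9 targets of the oxidant-responsive factor NRF2, Gclc, the catalytic subunit of the enzyme that starts glutathione synthesis, was lower (-0.14, edgeR adjusted p = 0.0168). With total counts as library sizes Gclc was at -0.11 (adjusted p = 0.0957). Of 13 genes of the mitochondrial stress response, the transcription factor gene Atf4 was lower (-0.17, edgeR adjusted p = 0.0485). Atf5 (-0.04, edgeR adjusted p = 0.825) and Ddit3 (0.12, edgeR adjusted p = 0.146), also transcription factors, did not pass. Atf4 was at -0.08 without B6 libraries 3 and 5 (adjusted p = 0.215), and with 1 mouse left out it kept its call in 3 of 10 fits. The medians of these lists were -0.08 and -0.02.

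**Figure D5:**
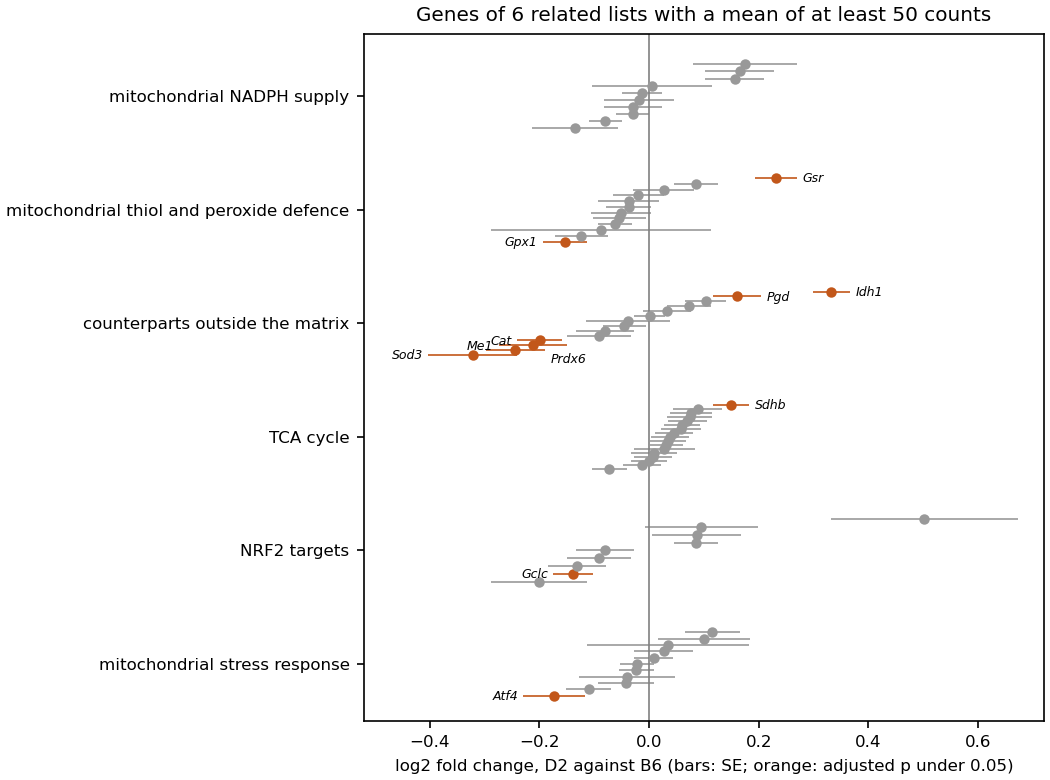
Log2 fold change of D2 against B6 (x axis, bars show the standard error) of the genes of 6 lists (y axis) that averaged 50 counts or more, each point 1 gene. Orange points passed an adjusted p of 0.05 and carry their symbols. Idh1 at 0.33 and Sod3 at -0.32 were the widest of these, and no gene of the list of mitochondrial NADPH supply passed.

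Marker genes of glia and blood moved between the strains too. They are given over all libraries. Past the threshold, 9.83% of all genes were lower and 8.50% higher in D2. B6 libraries 3 and 5 held the highest levels of their strain (mean log2 CPM) for markers of oligodendrocytes (8.51 and 8.52) and of blood (3.66 and 3.69). Of 7 oligodendrocyte markers, 5 were lower in D2 (Mog, Mag, Mobp, Cnp and Opalin), and the 7 summed to 4319 to 6233 CPM in B6 and 3260 to 4760 CPM in D2. Of 7 astrocyte markers, Aldh1l1 and Aqp4 were lower and Gja1 was higher, with sums of 1293 to 1405 CPM in B6 and 1262 to 1389 CPM in D2. With the astrocyte marker level as a covariate, Nnt was at -0.55 (edgeR adjusted p = 0.0198) and Glud1 at 0.22 (adjusted p = 0.0178). Of 5 genes of red blood cells, Hba-a2, Hbb-bt and Alas2 were lower, with sums of 71.8 to 99.5 CPM in B6 and 42.2 to 77.9 CPM in D2. These genes did not move together: the log2 fold change was -5.47 for Hba-a2 and 0.08 for Hba-a1 (edgeR adjusted p = 0.780). Hbb-bs, at -0.36, did not pass either (edgeR adjusted p = 0.130). Of 6 microglial markers, P2ry12 was higher and C1qa lower, with sums of 235 to 263 CPM in B6 and 209 to 254 CPM in D2. With edgeR, 0 of 6 endothelial markers passed (2 at an unadjusted p under 0.05, 1 with DESeq2) and 0 of 6 markers of neurons in general (1 at an unadjusted p under 0.05, 0 with DESeq2), and of 6 markers of ependyma and choroid plexus Folr1, with a mean of 2.7 reads, was lower in D2. The part of oligodendrocytes, microglia and blood in the values above was not tested.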

How the data were processed

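The deposited values are raw counts of reads per gene in the NAc of 5 B6 and 5 D2 mice, with 1 library per mouse. Per the methods and the submitters' processing notes, the authors trimmed the reads, aligned them to GRCm39 with STAR 2.7.10b, sorted them with SAMtools 1.6, counted them with featureCounts and removed genes with a median count of 0. Whether counting used the strand is not given in the sources used here. The labels name Novogene for library construction, the methods a university core. Depth was 96977262 to 116776714 counts per library. The table also held the authors' median and mean count and the number of libraries under 1 count per gene, which were not used.

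Here, counts were fitted with edgeR 4.0.16 in R 4.3.3 (TMM, quasi-likelihood F test, two-sided, Benjamini-Hochberg adjustment over 29883 genes, threshold 0.05, no filter and no covariate). Standard errors are the size of the log2 fold change over the root of F. Log2 CPM used a prior count of 0.5. Single values were compared with exact permutation tests (scipy 1.17.1). Symbols, positions and lengths came from GENCODE M39 on GRCm39, which held 29519 of the gene IDs, and near-identical stretches of at least 150 bases at 95% identity or more were found with BLAST 2.17.0. The genes, lists and rules were chosen with earlier results of these data known. Named were the 9 genes, the called genes of each list (at most the 5 largest), called genes within 1 Mb of Nnt and the 5 genes most like it. Pgd is named beyond that rule, and so are genes that did not pass or that overlap a member. Some results are not reported here. The sources name no batches. The p-values measure the spread between these libraries, 1 per mouse, with counting error included. B6 libraries 3 and 5 were taken as separate mice. Alternatives were DESeq2 1.42.0, other scalings and filters, covariates, the replicate block and each mouse left out. The cortical marker covariate and the fit without B6 libraries 3 and 5 were added after seeing the data. The fits were tested on simulated data. Tables and figures were made in Python 3.11.15 (numpy 2.4.6, pandas 2.3.3, matplotlib 3.10.9).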

Additional observations from a re-analysis of the deposited data

Results flagged for a closer look

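Among 62 groups of 5 libraries (31 named genes in each strain), 2 held a library far from the other 4, where chance flags about 1 in 20 groups. Nnt was at 0.387 CPM in D2 library 5, below the next library at 0.518 CPM, and without D2 replicate 5 the log2 fold change of Nnt was -0.45 with an edgeR adjusted p of 0.0473. Gpx1 was at 44.8 CPM in D2 library 4, below the next library at 49.2 CPM, and without D2 replicate 4 its log2 fold change was -0.13 with an edgeR adjusted p of 0.0349.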

How the results depend on the processing

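Of 739 values of 35 results recomputed under the alternatives, 660 kept their direction and their side of the threshold or, for counts, stayed within 1.5 times. Another 14, of Idh2, Prdx3, Prdx5 and Txnrd2, changed sign and did not pass in either fit. Of the rest, 55 lost their call, 5 gained one and 5 counts moved beyond 1.5 times. When single mice were left out, 4636 to 5676 genes, 1 to 3 of the 9 members and 8 to 12 genes of the related lists passed, the log2 fold change of Nnt lay between -0.59 and -0.45 (adjusted p 0.0187 to 0.0544 with edgeR) and its mean log2 difference between -0.59 and -0.44 (exact permutation p 0.00794 to 0.0159). The members count was 1 without B6 replicate 4 (Nnt at -0.48 did not pass), without B6 replicate 5 and without D2 replicate 1. At an adjusted p of 0.01, 3415 genes passed with edgeR, and 0 of the 9 members did, where 4 had an unadjusted p under 0.05 and DESeq2 called 2 at that threshold. DESeq2, filters, scalings and covariates otherwise left 2 or 3 members called. With total counts as library sizes, 45.0% of called genes were lower in D2, against 53.6%, and the median of all genes moved from 0.00 to 0.03 on the log2 scale.

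For the replicate numbers 1 to 5, the deviations of same-numbered mice from their strain means correlated at 0.37, -0.40, 0.36, 0.03 and -0.29 over 15388 genes. Of 5 B6 libraries, 2 correlated best with their own number. These values do not settle whether the numbers pair the mice. In a replicate block, Nnt was at -0.54 (edgeR adjusted p = 0.0316), 4731 genes and 2 members passed, and the exact sign-flip test of the paired differences (mean -0.54) gave p = 0.0625, the smallest that 5 pairs allow. The limits are the depth on Nnt (41 to 86 reads per library), the whole-gene counts, the reference of one strain, shared exonic bases and B6 libraries 3 and 5.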
